A study of Drosophila melanogaster with 2 samples.

Results

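The mitochondrial ribosomal protein genes were taken as the protein-coding genes of the Drosophila melanogaster annotation whose symbol starts with mRpL (large subunit) or mRpS (small subunit). There were 73 of them, 47 for the large and 26 for the small subunit, among 13945 protein-coding genes on 6 chromosomes. A bound region belonged to a member when its summit, the position of highest signal, lay within 500 bp of a start of one of its protein-coding transcripts, or when that start was the nearest protein-coding start. By this rule 14 of the 4781 bound regions of the series belonged to members, and no member had more than 1. Of these, 13 had the summit within 500 bp of the start and are called promoter regions, and the region of mRpL40 was distal.

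The data are chromatin immunoprecipitation sequencing (ChIP-seq) peak lists from a transgenic fly strain, Awh-GFP, that makes an Awh-eGFP fusion protein. Awh, also called Arrowhead, is a transcription factor of the LIM-homeodomain class. Whole embryos aged 0 to 24 h gave 2 biological replicates of a single group, and the fusion protein was pulled down with an anti-GFP antibody, although another label names Awh as the antibody. The labels do not say in which cells the fusion protein is made, and peak lists hold no marker by which the tissue could be checked. The labels name a possible control, which was not analysed here, so the local background at these promoters was not examined, the lists were set against the rest of the genome and no test between groups exists.

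Mitochondrial ribosomes translate the few proteins encoded by mitochondrial DNA, which are subunits of the respiratory chain and of ATP synthase. Their ribosomal RNAs come from mitochondrial DNA, while all their proteins are encoded in the nucleus, made in the cytosol and imported. Many of these proteins have bacterial counterparts with the same number, and others occur only in mitochondrial ribosomes.

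The sequences under 6 of the member summits are shown because the signal at member promoters fell into a strong and a weak group. The strongest 2 (mRpS23 and mRpS10), 2 others of the strong group with TAATTA (mRpL24 and mRpS2) and the 2 weak ones with TATCGATA (mRpL32 and mRpL39) were chosen. Each is given on the plus strand of dm6, read from the Release 6 RefSeq assembly, within 100 bp of the summit and shortened where it would enter a transcript. Capitals mark TAATTA, the core site of LIM-homeodomain proteins, TATCGATA, the site of the promoter factor DREF, and the hexamers ACAGTG and AATTAA, on either strand. The windows lie at chr2L:13835370-13835563 and chr3R:15229437-15229637, at chr2L:4945409-4945578 and chr2L:4850457-4850640, and at chr3R:31252657-31252857 and chr3L:14999685-14999885, in the order of the lines.
mRpS23: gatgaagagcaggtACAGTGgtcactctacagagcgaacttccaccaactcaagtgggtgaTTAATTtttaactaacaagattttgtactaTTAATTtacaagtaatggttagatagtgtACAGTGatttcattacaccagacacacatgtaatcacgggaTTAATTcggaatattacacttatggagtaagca
mRpS10: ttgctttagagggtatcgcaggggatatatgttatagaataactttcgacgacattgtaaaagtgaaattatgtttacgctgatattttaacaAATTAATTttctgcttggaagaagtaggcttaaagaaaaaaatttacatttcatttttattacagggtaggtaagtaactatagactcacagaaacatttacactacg
mRpL24: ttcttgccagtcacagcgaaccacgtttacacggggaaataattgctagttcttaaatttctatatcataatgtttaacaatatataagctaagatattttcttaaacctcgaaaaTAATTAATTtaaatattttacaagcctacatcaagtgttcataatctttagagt
mRpS2: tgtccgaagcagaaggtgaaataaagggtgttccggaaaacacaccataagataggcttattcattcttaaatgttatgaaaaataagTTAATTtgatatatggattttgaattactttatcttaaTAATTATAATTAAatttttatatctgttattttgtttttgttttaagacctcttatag
mRpL32: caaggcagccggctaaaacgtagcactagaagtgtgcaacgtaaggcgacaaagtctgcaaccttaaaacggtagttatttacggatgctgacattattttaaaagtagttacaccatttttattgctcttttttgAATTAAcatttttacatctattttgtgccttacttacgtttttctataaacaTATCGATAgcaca
mRpL39: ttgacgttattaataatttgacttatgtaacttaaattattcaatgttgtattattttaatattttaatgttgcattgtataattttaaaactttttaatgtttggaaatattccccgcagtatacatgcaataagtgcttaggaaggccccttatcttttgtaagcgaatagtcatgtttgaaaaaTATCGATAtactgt
In mRpL24 the TAATTA match overlaps a match to AATTAA, in mRpS2 the second of 2 TAATTA matches does, and in mRpS10 the AATTAA match is read on both strands at neighbouring positions.

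A promoter region was present at 13 of 73 members, or 17.8% (95% Wilson interval 10.7 to 28.1%), against 13.6% of all protein-coding genes. With regions assigned by nearest start added, 14 of 73 members (19.2%) had one, against 23.3% of all genes. Both shares are near the background, so how often members were bound is not a result about them. What set the regions of bound members apart in description was the height of some peaks. Of the 13, 7 lay among the strongest 10% of the 1537 promoter regions, whose lowest signal was 314. Among these 7, the summits at mRpS23, mRpL24, mRpS2 and mRpL20 were nearer to a neighbour's start. Their height thus cannot be given to the member alone. The signal is the enrichment value of the authors' peak caller in the list made from both replicates, a pooled value; the sum of both replicates' own signals was 0.914 to 1.08 times it at the member regions. In whole embryos a higher signal from more bound cells and from more binding per cell cannot be told apart.

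Among the strong 7, the small-subunit genes mRpS23 and mRpS10 came first, while mRpS2 stood below all large-subunit ones but mRpL20. The region of mRpS23, which encodes a protein found only in mitochondrial ribosomes, lay at chr2L:13835341-13835594 with a signal of 1153, rank 9 of all regions, and measured 604 in replicate 1 and 542 in replicate 2. The region of mRpS10, whose bacterial counterpart sits in the head of the small subunit, lay at chr3R:15229417-15229662 with a signal of 1134, rank 10, from 595 in replicate 1 and 547 in replicate 2. At mRpS2, a conserved protein of the small subunit, the region at chr2L:4850464-4850644 had a signal of 461, with 224 in replicate 1 and 232 in replicate 2. The regions of mRpS23 and mRpS10 were thus close to each other and well above that of mRpS2 in each replicate.

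The other 4 of the strong group belong to the large subunit. The mRpL41 region at chr2R:15217628-15217875 had a signal of 1085, rank 13, from 610 in replicate 1, the highest of any member there, and 475 in replicate 2. At mRpL23, whose bacterial counterpart lines the exit of the peptide tunnel, the region chr3L:2373479-2373732 had a signal of 846, with 445 and 380 in replicates 1 and 2. The mRpL24 region at chr2L:4945392-4945587 had a signal of 483, with 292 in replicate 1 and 188 in replicate 2. Bacterial L24 is one of the first proteins to join the large subunit, and its mitochondrial counterpart showed the largest gap between replicates of the strong group, a log2 ratio of 0.63. The mRpL20 region at chr3L:13018054-13018239 had a signal of 457, with 244 and 209 in replicates 1 and 2, and was the weakest of the strong group.

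The other 6 promoter regions were far weaker. The signal dropped 3.14-fold from mRpL20 to the next member, mRpL32, which had 145 at chr3R:31252592-31252921, from 84.3 in replicate 1 and 55.3 in replicate 2. The mRpL18 region at chr2R:12756134-12756463 had 109, from 58.3 and 49.7 in replicates 1 and 2, and its bacterial counterpart binds the 5S ribosomal RNA. The mRpL39 region at chr3L:14999620-14999949 had 102, from 60.4 and 34.9. These 3 large-subunit genes were higher in replicate 1.

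For the small subunit, mRpS6 had 98.9 at chr3L:4364297-4364626, from 61.1 in replicate 1 and 29.3 in replicate 2. The mRpS7 region at chr2L:10386395-10386724 had 98.5, from 64.9 and 41.8 in replicates 1 and 2, and its bacterial counterpart joins the head of the small subunit early in assembly. The weakest was mRpL54 at chr2R:21060446-21060775, with 71.9 from 35.1 and 36.6. From mRpS23 to mRpL54 the promoter signal ranged 16.0-fold.

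**Figure D1:**
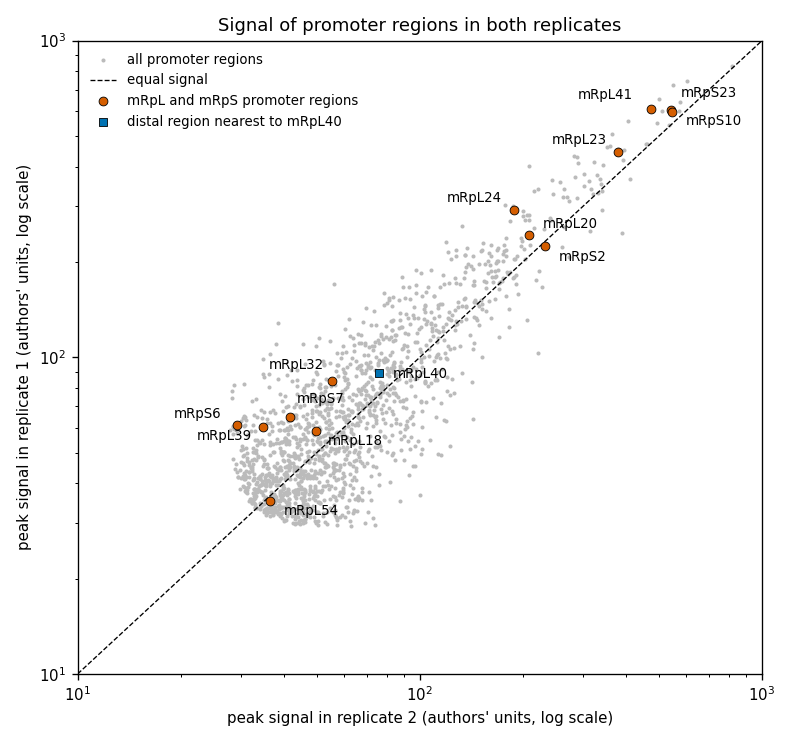
Peak signal of promoter regions in replicate 1 (vertical, authors' units, log scale) against replicate 2 (horizontal, log scale). Grey points are all promoter regions with a signal in both, orange points the 13 member promoter regions and the blue square the distal region of mRpL40; 7 orange points lie at the upper end and 6 in the lower cloud, with none between 145 and 457 in pooled signal.

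The median member promoter signal was 457, 4.05 times the median of 113 over all promoter regions, but the value of 457 is that of mRpL20, the last region before the gap. The ratio therefore moved to 1.24 with the authors' optimal list, to 1.28 with a window of 250 bp and to 1.31 with one of 1000 bp, and the split into 7 and 6 describes the members better. The strong group had a median of 846 and the weak group one of 100.3, the latter near the 113 of all promoter regions. The peaks of the strong group were 181 to 254 bp wide. All 6 weak ones were listed at 330 bp, which is also the median width of all promoter regions and of all regions. Widths under 300 bp occurred in 97.4% of the strongest 10% of promoter regions and in 15.9% of all of them, so narrow peaks went with strong signal across the list.

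Replicate 1 was higher at 11 of the 13 promoter regions, with a median log2 ratio of replicate 1 to replicate 2 of 0.23 (SD 0.34 over 13 regions). Over all promoter regions it was higher at 58.3%, and at 83.7% of the strongest 10%, where the median log2 ratio was also 0.23. The largest log2 ratios were those of mRpS6 at 1.06, mRpL39 at 0.79 and mRpS7 at 0.63, all in the weak group. In the strong group mRpL24 was level with mRpS7 at 0.63. The smallest were those of mRpL54 at -0.06, mRpS2 at -0.05 and mRpS10 at 0.12. The authors' scaling between replicates is not recorded, so these ratios are descriptive.

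Each replicate also has a thresholded list of its own. In that of replicate 1, 10 of 73 members (13.7%) had a promoter region, against 9.51% of all genes, and in that of replicate 2, 11 of 73 (15.1%) against 10.5%. All 7 strong regions were in both lists, as were mRpL32, mRpL18 and the distal region of mRpL40. The regions of mRpL39 and mRpS6 were in neither, mRpS7 was in that of replicate 1 alone and mRpL54 in that of replicate 2 alone. In the optimal list, the broader one made from both replicates, 16 of 73 members (21.9%) had a promoter region, against 15.3% of all genes. It added mRpS26 with a signal of 80.9, mRpL4 with 70.6 and mRpL34 with 59.4. All peaks of the conservative list have a score of at least 830 of 1000, a measure of rank agreement between replicates, and the members with the lowest were mRpS6 at 884 and mRpL54 at 910. Just below the limit, mRpL4 had the highest score of the members without a region in the ranked list from both replicates, at 728.

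Most members share their promoter with a neighbour. Another protein-coding start lay within 500 bp for 54 of 73 members (74%), against 30.9% of all genes, and in 52 of the 54 the nearest of these ran on the opposite strand. Of the 54, 12 (22.2%) had a promoter region, against 22.8% of all genes of that kind, and of the 19 without such a neighbour 1 (5.26%) had one, against 9.45%. Both shares are again near or below their background. Among the promoter regions 12 of 13 reached at least 2 genes (92.3%), against 29.0% of all promoter regions, so a peak at these genes can seldom be given to the member alone. When each summit was given to its nearest start only, 8 members had a region and 7 a promoter region.

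Among the strong group, mRpS23 is paired with CenG1A, which encodes a GTPase-activating protein for Arf, and its summit lay 398 bp upstream of mRpS23 and 94 bp upstream of CenG1A. The mRpS10 summit lay almost midway, 128 bp upstream of mRpS10 and 129 bp upstream of Art3, an arginine methyltransferase gene. At mRpL24 the summit was 148 bp upstream of the member and 70 bp upstream of betaggt-I, a subunit of a protein prenyltransferase. At mRpS2 it was 138 bp upstream of the member and 84 bp from Mon1, a gene of endosome maturation. At mRpL20 it was 277 bp upstream of the member and 122 bp from Icmt, a methyltransferase of prenylated proteins. All these summits lay between a pair of starts that face away from each other, and all but that of mRpS10 were nearer to the neighbour.

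The remaining 2 strong regions differed in layout. At mRpL23 the summit fell 66 bp downstream of the nearest of its 3 annotated starts, in its own 5' UTR, and 116 bp upstream of the start of CG9004. At mRpL41 the summit was 130 bp upstream of the member with no other protein-coding start within 500 bp. It is thus the only promoter region of the 13 that reached no second gene.

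In the weak group the neighbours were qless (ubiquinone synthesis) at mRpL32, Taz (cardiolipin remodelling) at mRpL18, Prosbeta2 (a proteasome subunit) at mRpL39, Cip4 (a membrane-bending protein) at mRpS6, Cdk1 (the mitotic kinase) at mRpS7 and CG15653 at mRpL54. Their summits lay 88 to 178 bp upstream of the member start. The summit at mRpL18 lay inside the 5' UTR of Taz, whose start is 20 bp from that of mRpL18. Over all 13, 12 summits were upstream of the member start, 10 lay between opposite starts and 6 were nearer to the neighbour.

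**Figure D2:**
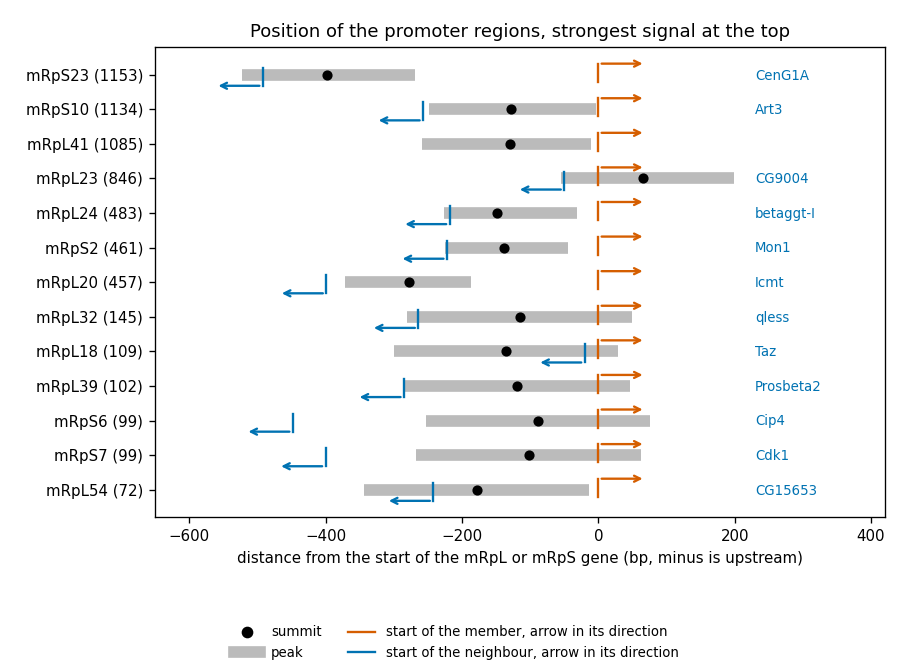
Position of the 13 promoter regions relative to the start of the member gene at 0 (bp, minus is upstream), ordered by pooled signal, which is given in brackets. Grey bars are peaks, black points summits, orange and blue marks the starts of the member and of the neighbour with their direction; 12 summits lie to the left of the member start and 1, mRpL23, to the right.

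The region of mRpL40 was the exception to promoter binding. It lay at chr3R:11392854-11393183 with a signal of 164, from 89.5 in replicate 1 and 76.1 in replicate 2. Its summit was 14899 bp upstream of mRpL40 and within the 3' UTR of pros, which encodes the neural transcription factor Prospero. No candidate peak lay within 500 bp of the start of mRpL40 in either replicate. On the inner side of the 500 bp limit, mRpS23 at 398 bp was the member nearest to it. Just outside were regions 565 bp from mRpS31, with a signal of 97.0 and hzg as nearest gene, and 991 bp from mRpS16, with 65.3 and cg as nearest gene.

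The ranked lists, which hold all candidate peaks before the threshold, show what was measured at the other 60 starts. Candidates lay within 500 bp in both replicates at 34 of them (56.7%), against 51.9% of the 12051 genes without a promoter region. They lay there in 1 replicate at 20 of the 60, against 3624 of the 12051, and in neither at 6. The median of the strongest candidate was 21.2 in replicate 1 and 18.8 in replicate 2, against 19.0 and 19.5 for all genes without a promoter region. The medians over all candidates, 14.5 and 14.6, are not a like measure, since they are not limited to the strongest candidate near a start. No candidate in either replicate was found at 10% of these members, against 18.0% of such genes. The medians and the share with candidates in both replicates are thus close to those of all genes without a promoter region. By replicate the counts ran in opposite directions. Candidates lay at 39 of the 60 members in replicate 1 and at 49 in replicate 2, against 8349 and 7789 of the 12051 genes. This difference was not tested.

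The highest mean of both replicates among members without a region was that of mRpS26, with 47.4 in replicate 1 and 45.4 in replicate 2. It was followed by mRpL34 with 26.3 and 45.7, mRpL4 with 27.6 and 40.7, mRpL21 with 27.8 and 34.0, and mRpL19 with 25.2 and 33.4. The replicate 1 value of mRpS26 exceeded that of the bound mRpL54, so the signals of members in and out of the list overlap. A single value of 48.0 at mRpS5 had no counterpart in replicate 2.

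At the low end stood mRpS18C, with 12.9 in replicate 1 and 2.34 in replicate 2. Next were mRpL27 with 10.2 and 16.3, mRpL11 with 12.1 and 15.6, mRpS18A with 12.3 and 17.0, and mRpL44 with 5.47 and 26.1. Besides mRpL40, the members with no candidate in either replicate were mRpL15, mRpL36, mRpL37, mRpL38 and mRpS25. An absent candidate means that the caller listed no peak there; the read depth is unknown.

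**Figure D3:**
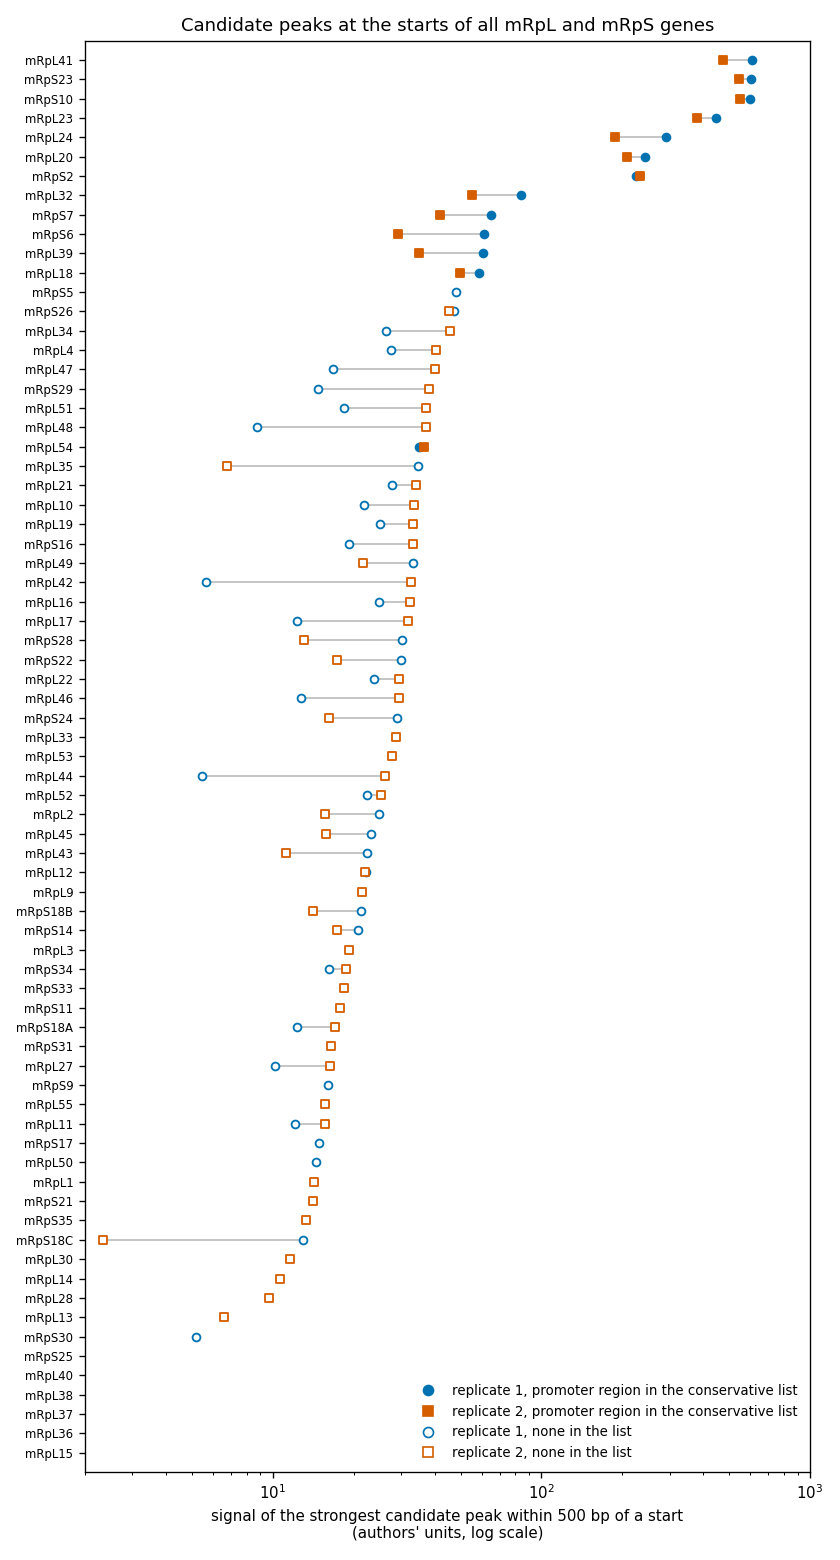
Signal of the strongest candidate peak within 500 bp of a start (horizontal, authors' units, log scale) for all 73 members, with blue circles for replicate 1 and orange squares for replicate 2, ordered by the larger value. Filled symbols mark the 13 members with a promoter region; no symbol means that no candidate was listed, as for the 6 at the bottom, and values of 30 to 50 occur both with and without a region.

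Both subunits were bound at similar shares, 8 of 47 (17%) for the large and 5 of 26 (19.2%) for the small. By chromosome, a promoter region was present at 4 of 12 members on 2L (33.3%, against 14% of all genes there) and at 3 of 12 on 2R (25%, against 13.2%). It was present at 4 of 17 on 3L (23.5%, against 15.5%) and at 2 of 21 on 3R (9.52%, against 13.9%). None of the 11 members on X had one (95% Wilson upper bound 25.9%), where 11.2% of all genes did. With so few genes on each chromosome the intervals are wide, and each of them includes the share of all genes on that chromosome, that on 2L (13.8 to 60.9%) only just.

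Among other gene lists for mitochondria, complex I had a promoter region at 6 of 40 genes (15%), complex IV at 2 of 16 (12.5%), ATP synthase at 2 of 15 (13.3%) and the mitochondrial aminoacyl-tRNA synthetases at 3 of 15 (20%). Complex III, with 9 genes, and the mitochondrial translation factors, with 8, had none. None of these lists held a region in the strongest 10%. In the list of mitochondrial DNA and RNA factors, 2 of 13 had one, PNPase, a mitochondrial RNA-processing enzyme, with 1072 and the single-stranded DNA-binding protein gene mtSSB with 312, of which only PNPase passed the limit of 314. The genes for cytoplasmic ribosomal proteins had a promoter region far more often, at 56 of 92 (60.9%), but with a median signal of 150, a highest of 402 and 2 in the strongest 10%. The mitochondrial set was thus bound less often but held 7 regions above 402. Among these, the summits at mRpS23, mRpL24, mRpS2 and mRpL20 were nearer to a neighbour's start. No test was made of the differences between the lists.

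**Figure D4:**
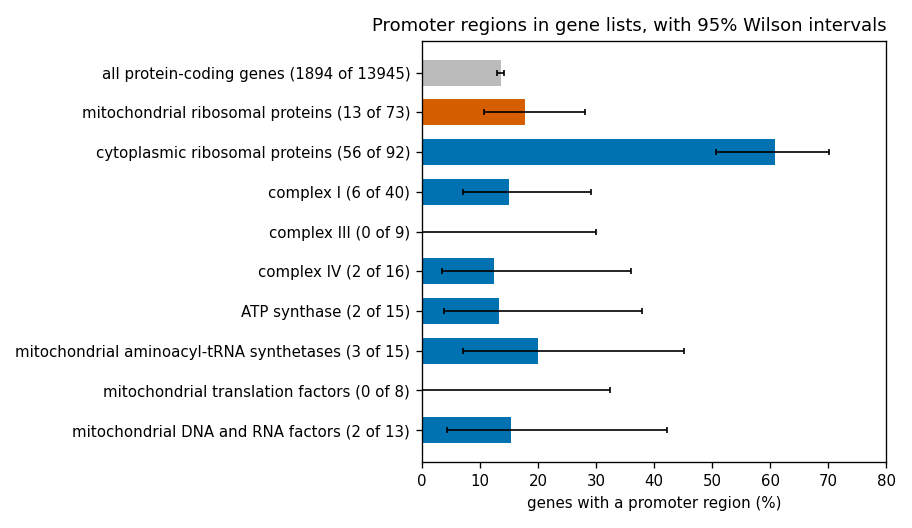
Share of genes with a promoter region (horizontal, percent) in each gene list, with the counts in brackets. Bars are shares and whiskers 95% Wilson intervals, which cover the number of genes only; the 13 of 73 mitochondrial ribosomal protein genes are near the 13.6% of all genes, and the cytoplasmic list stands at 60.9%.

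Sequence within 100 bp of the summits was searched on both strands for fixed words, and a match is a description, not a site. TAATTA was found in 3 of 13 member promoter regions (23.1%), those of mRpL24, mRpS2 and mRpS7, against 17.7% of all promoter regions, which is near the background. TATCGATA was found in 2 of 13 (15.4%), against 4.49%, at mRpL32 and mRpL39 and in none of the strong 7. The strongest 10% of promoter regions held it in 5 of 153 (3.27%), so its absence from 7 regions is near the background. Its core CGATA, which every TATCGATA contains, was in 6 of 13 (46.2%), against 30.2%. ACAGTG was in 4 of 13 (30.8%), against 16.9%, namely mRpS23, mRpS2, mRpL20 and mRpS6, and the mRpS23 window printed first holds it at 2 positions. The match at mRpS2 lies in the part of its window that enters a transcript and was left out of the line shown above.

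The regions were also rich in A and T, with a median GC content of 30.8% against 36.8% for all promoter regions and 33.3% for their strongest 10%. Of the words made of A and T alone, TAATTA was near its background, as given above. AATATT was in 5 of 13 (38.5%), against 24.9% of all promoter regions and 33.3% of the strongest 10%. TTTAAA was in 8 of 13 (61.5%), against 29.5% and 41.8%. AATTAA, chosen after the member sequences had been seen, was in 11 of 13 (84.6%) and in all 7 strong regions, against 36.4% of all promoter regions and 43.8% of the strongest 10%. The part of base composition in these shares was not tested. GAGAG, the word of GAGA factor, was in 1 of 13 (7.69%), against 27.1% and 22.9%. Within 100 bp of the starts of the same 13 members it was in 3 (23.1%), against 22.5% of all protein-coding starts. Of the other words searched, ACACTG was in 2 of 13 (15.4%), against 15.6%. CCGGAA and CACGTG were each in 1 of 13 (7.69%), against 7.03% and 2.21%. GGTCACA, GCGCATGC and AAGGTCA were in none, against 3.38%, 0.52% and 0.91%. CAGCTG is given under other observations.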

How the data were processed

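The authors' deposited peak lists on dm6, per the labels, were used as they stand: a ranked and a thresholded list for each replicate, and conservative and optimal lists from both. Fragments were 200 to 800 bp, per the labels. Each peak carries the authors' signal and a deposited score up to 1000 that reflects rank agreement between replicates; the summit offset is also the authors' value. The aligner and peak caller were not given in the sources used here, and read depth is unknown.

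Of 5026 conservative peaks, 5024 lay on the 6 chromosomes, and overlapping peaks were merged into 4781 regions, each keeping the summit and signal of its strongest peak. Starts came from Ensembl release 115 (version 6.54), and all peak ends fell within the Release 6 chromosome lengths. Replicate signals are those of the strongest ranked peak that overlaps a region by at least 1 bp. Python 3.11.15, NumPy 2.4.6 and SciPy 1.17.1 were used. Assignment to starts was checked on regions planted at known positions. For words, TATCGATA was only planted in random sequence and the search used here was not run on it, so the word counts were not checked. Intervals are 95% Wilson intervals and cover counting error only. No test was made, as there is 1 group and the control that the labels name as possible was not analysed here.

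The members, lists and words were chosen with earlier results of these data known. Genes named are the 12 members with the strongest and the 3 with the weakest promoter regions, distal ones, members without a region with the 5 highest and 5 lowest mean candidate signals or with none, the 3 largest and 3 smallest replicate ratios, and neighbours within 500 bp of the same summit; mRpS5, mRpS31, mRpS16, PNPase and mtSSB were named after their values were seen. Alternatives were the optimal list, each replicate's own list, windows of 250 and 1000 bp, the stronger 50% of regions, peaks left unmerged, the 5' end of each gene only, the nearest start only, and word windows of 50 and 200 bp.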

Additional observations from a re-analysis of the deposited data

How the results depend on the processing

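The number of members with a region was 14 and stayed between 10 and 17 under the alternatives, with 1 exception. The nearest start only gave 8 members, 8 regions and 7 promoter regions. It left out the strong regions at mRpS23, mRpL24, mRpS2 and mRpL20, and the signal ratio was not computed for it. In the list of a single replicate, with the other left out, there were 11 to 12 members with a region and 10 to 11 with a promoter region. The median ratio of member to all promoter signals was 4.05. It fell to 1.24 with the optimal list, 1.28 with a window of 250 bp and 1.31 with one of 1000 bp. In these the member median crossed the gap into the weak regions as members were added or lost. The ratio was 2.91 with the stronger 50% of regions, where weaker regions are left out of both medians. With either replicate left out it was 3.13 to 3.40. In these lists the member median stayed among the strong regions. In what follows, each share is set against that of all promoter regions under the same setting. The share with TATCGATA, 15.4%, was 0% without replicate 1 (against 5.21%) and 10% without replicate 2 (against 4.19%). It was 0% within 50 bp of the summit (against 1.63%) and 23.1% within 200 bp (against 8.46%). The share with TAATTA, 23.1%, was 27.3% without replicate 1 (against 17.8%) and 30% without replicate 2 (against 19.6%). With windows of 250 and 1000 bp it was 27.3% (against 18.3%) and 26.7% (against 17.6%). Within 50 bp of the summit it was 7.69% (against 11.7%) and within 200 bp 23.1% (against 26.5%), both below the background. The share with ACAGTG, 30.8%, was 27.3% without replicate 1 (against 17.4%) and 30% without replicate 2 (against 19.9%). It was 33.3% in the stronger 50% (against 19.3%). A window of 1000 bp gave 26.7% (against 17.5%), and one of 250 bp gave 18.2% (against 17.2%), which is near the background. Within 50 and 200 bp of the summit it was 15.4% (against 6.44%) and 38.5% (against 28.4%). With 13 promoter regions, 1 region moves such a share by several percentage points. No paired analysis was possible because there is 1 group. Read depth is unknown, and the control that the labels name as possible was not analysed here, so neither the precision of the weak signals, such as those of mRpS6 and mRpL54, nor the local background at these promoters can be given.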

Other observations

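CAGCTG, an E-box, lay within 100 bp of a start, on either strand, in 38 of 73 members (52.1%), against 13.8% of all protein-coding starts, 19.3% of genes with another start within 500 bp, 30% of complex I genes and 8.70% of cytoplasmic ribosomal protein genes. It lay at 8 of the 13 members with a promoter region (61.5%) and at 30 of the 60 without (50%). Within 100 bp of the bound summits it was found in 3 of 13 (23.1%), against 11.8% of all promoter regions. TATCGATA lay at 15 of 73 member starts (20.5%), against 7.84% of all starts, 12.9% of genes with another start within 500 bp and 29.3% of cytoplasmic ribosomal protein genes. These shares were singled out after their values were seen, and no test was made.

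The genes tko and bonsai encode mitochondrial ribosomal proteins of the small subunit under other symbols and so were not members. Neither had a region. Each had a candidate peak in replicate 2 only, with 17.1 at tko and 14.2 at bonsai.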
